A study of Mus musculus with 16 samples.

Results

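The genes described here are the SREBP transcription factors, the proteins that regulate them, and the enzymes and carriers of cholesterol synthesis, 28 genes of the 54532 in the deposited expression table of mouse inguinal white adipose tissue (iWAT). The members were chosen by gene name alone, from a list drawn up with earlier results of these samples in view, and the values that led to the list are not stated. The differences between groups given below are therefore descriptions, with the fit over all genes beside them, and no count over the members is offered as support for a direction.

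Bulk RNA of iWAT was sequenced in 16 libraries, 4 in each of 4 groups of male mice that entered the experiments at 8–10 weeks of age. Has2_TG were Apn-Has2 mice, which carry Apn-rtTA and TRE-Has2 and so express hyaluronan synthase 2 in adipocytes under the adiponectin promoter when doxycycline is given, and Has2_WT were their littermate Apn-rtTA controls. PH20_TG were Apn-PH20 mice, in which Apn-rtTA drives TRE-PH20, the hyaluronidase encoded by Spam1, and PH20_WT were the littermate Apn-rtTA controls of that study. All 4 groups, controls included, ate chow with 200 mg/kg doxycycline for 5 days, so that no group is free of the inducer or of rtTA.

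SREBPs are made as precursors held in the endoplasmic reticulum by Scap and the Insig proteins. When membrane sterol is low, Scap escorts the precursor to the Golgi, proteases release its soluble part, and that part enters the nucleus and switches on the genes of cholesterol synthesis and uptake (mainly Srebf2) or of fatty acid synthesis (mainly Srebf1). Adipose tissue stores a large pool of free cholesterol, and its adipocytes express Srebf1 strongly, where the factor also follows insulin and feeding.

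**Figure D1:**
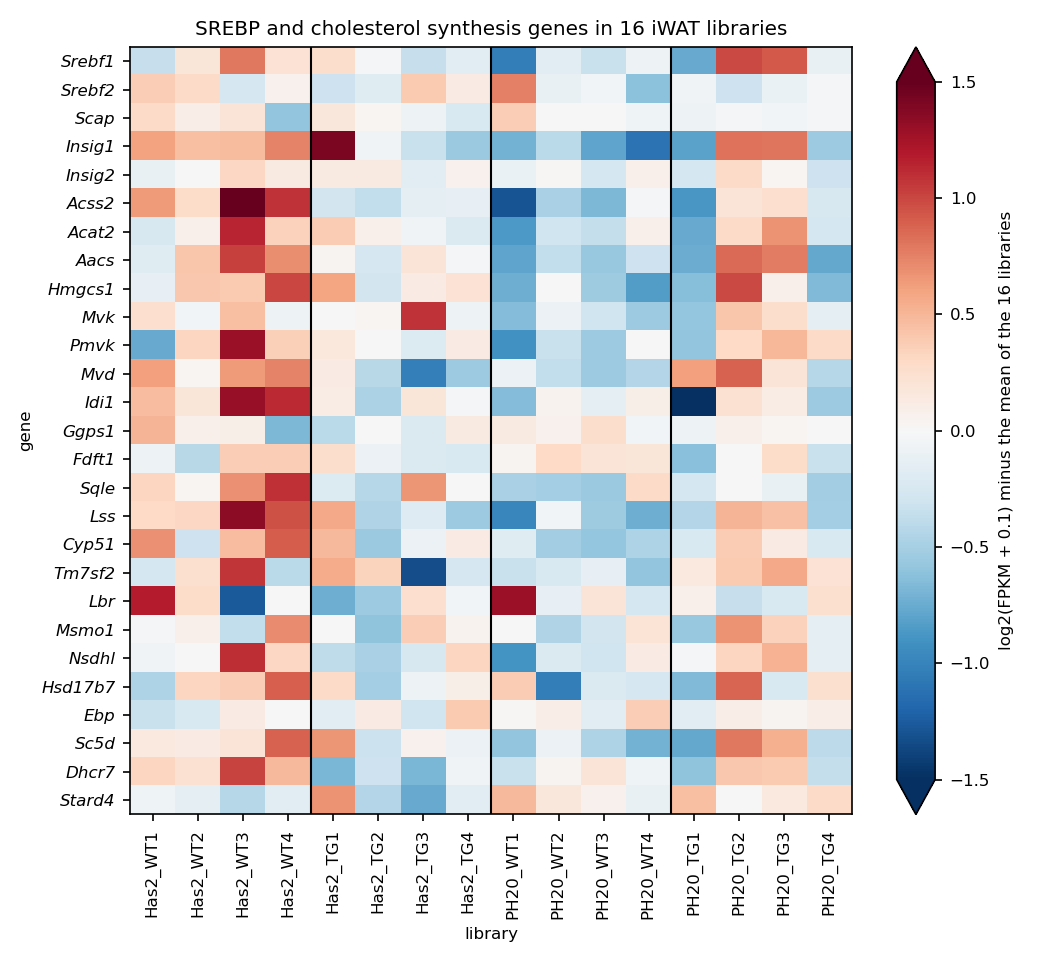
Heat map of the 27 members with enough reads to be tested, in rows by role, across the 16 libraries in columns. Colour is log2(FPKM + 0.1) minus the gene's mean over the 16 libraries, and black lines separate the groups. Most members are red in Has2_WT2, Has2_WT3, Has2_WT4, Has2_TG1, PH20_TG2 and PH20_TG3. Most are blue in Has2_TG2, Has2_TG3, Has2_TG4, every PH20_WT library, PH20_TG1 and PH20_TG4.

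Levels are FPKM, reads scaled to gene length and a library total, and each library held 14421692 to 26751729 reads on genes. The total behind the FPKM was 0.886 (Has2_WT3) to 1.14 (PH20_WT1) times the reads on genes, and a smaller total raises FPKM. Has2 stood at 2.28, 1.86, 3.24 and 2.97 FPKM in the 4 Has2_TG libraries and at 0.806, 0.474, 0.417 and 0.643 FPKM in Has2_WT, without overlap. Spam1 had 0 reads in every library outside PH20_TG, 6, 12 and 5 reads in PH20_TG2, PH20_TG3 and PH20_TG4, and 0 reads in the library labelled PH20_TG1, which allows up to 3 reads and goes against its label. It is named below by that label only. Has2 in that library was 3.32 FPKM and in PH20_TG4 3.26 FPKM, as high as in Has2_TG, against 0.380 and 0.0990 FPKM in PH20_TG2 and PH20_TG3. Results of the PH20 study are given with and without PH20_TG1. The 10 adipocyte markers were present in every library, with a summed level of 4697 to 11132 FPKM. The 10 B cell markers summed to 174 to 478 FPKM in Has2_WT1, Has2_WT2, PH20_WT1 and PH20_WT3 and to 3.33 to 9.15 FPKM in the other 12 libraries. The 12 skeletal muscle markers ran from 7.92 to 1136 FPKM, and the 7 macrophage markers from 219 to 1778 FPKM, highest in PH20_TG1. In bulk tissue, fewer cells of a type and less RNA per cell cannot be told apart.

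The promoters of this family are the sites where SREBPs act, so the stretch before the start site was read for 24 of the 28 members from the RefSeq promoter table (build GRCm38.p6), which holds no entry for Sqle, Fdps, Stard4 and Fdft1. The 250 bases before each start were searched on both strands for the core of the sterol regulatory element (TCACNCCA), the CCAAT box of NF-Y, the GC box of Sp1 (GGGCGG) and the E-box CACGTG, at any start listed for a gene. No match to one motif overlapped a match to another. The sterol element letters occurred in 3 of 24 members, Srebf2, Hmgcs1 and Msmo1 (12.5%), against 3.94% of the promoters of genes with enough reads to be tested and 4.20% of all 27025 genes in the table. The CCAAT box occurred in 21 of 24 members (87.5%), against 40.1% of tested genes and 37.5% of all. The GC box also occurred in 21 of 24 members, against 64.0% of tested genes and 35.4% of all, and the E-box in 5 of 24 (20.8%), against 9.93% and 6.86%. The letters of a match are a description of the window and not a measured binding site.

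The sequences below run 5′ to 3′ on the gene's strand and stop before the first base that either annotation counts as part of the gene, with matches to the 4 motifs in capitals. Srebf2 (chr15:82147019-82147180, plus strand) and Hmgcs1 (chr13:119690101-119690350, plus strand) are shown because they hold the sterol element. Acss2 (chr2:155517793-155517947, plus strand), Mvd (chr8:122443423-122443672, minus strand), Lss (chr10:76531355-76531587, plus strand) and Insig1 (chr5:28071162-28071362, plus strand) are shown because their values differed most between the Has2 and PH20 studies.
Srebf2: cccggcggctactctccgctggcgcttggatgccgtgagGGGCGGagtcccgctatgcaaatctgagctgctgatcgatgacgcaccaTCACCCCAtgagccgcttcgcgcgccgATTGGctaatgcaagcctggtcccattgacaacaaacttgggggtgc
Hmgcs1: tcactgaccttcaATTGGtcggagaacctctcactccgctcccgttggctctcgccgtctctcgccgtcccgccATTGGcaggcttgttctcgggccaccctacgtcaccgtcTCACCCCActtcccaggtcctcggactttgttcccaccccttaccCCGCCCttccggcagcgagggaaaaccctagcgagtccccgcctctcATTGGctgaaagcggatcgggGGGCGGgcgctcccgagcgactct
Acss2: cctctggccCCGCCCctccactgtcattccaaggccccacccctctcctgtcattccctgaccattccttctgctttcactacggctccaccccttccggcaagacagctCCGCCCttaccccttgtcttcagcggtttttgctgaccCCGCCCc
Mvd: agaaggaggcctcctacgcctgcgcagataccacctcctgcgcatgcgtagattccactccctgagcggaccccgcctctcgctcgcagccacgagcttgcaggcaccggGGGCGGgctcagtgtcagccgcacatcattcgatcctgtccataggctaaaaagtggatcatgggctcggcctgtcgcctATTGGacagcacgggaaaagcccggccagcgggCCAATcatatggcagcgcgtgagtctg
Lss: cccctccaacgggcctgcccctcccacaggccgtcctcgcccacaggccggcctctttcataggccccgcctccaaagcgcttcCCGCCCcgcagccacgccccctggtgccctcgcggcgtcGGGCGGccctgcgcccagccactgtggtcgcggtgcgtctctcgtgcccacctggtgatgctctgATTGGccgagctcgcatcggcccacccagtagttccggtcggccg
Insig1: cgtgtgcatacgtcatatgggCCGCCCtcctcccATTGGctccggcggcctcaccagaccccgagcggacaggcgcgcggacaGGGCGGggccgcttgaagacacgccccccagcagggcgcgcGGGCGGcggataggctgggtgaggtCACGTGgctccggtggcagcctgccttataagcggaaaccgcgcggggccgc
In Srebf2 the sterol element letters span bases 162 to 155 before the RefSeq start, upstream of an inverted CCAAT box at 135 to 131. In Hmgcs1 they span bases 137 to 130, between inverted CCAAT boxes at 176 to 172 and at 45 to 41. Acss2, Mvd, Lss and Insig1 hold GC boxes and, within 250 bases of the start, at least 1 CCAAT box, but not the sterol element letters, and Insig1 alone of these 6 holds an E-box.

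The level of the members spanned a wide range. Srebf1 was the most abundant, with a mean of 117 FPKM over the 16 libraries, followed by Aacs at 93.5, Insig1 at 91.7, Hmgcs1 at 56.9 and Acat2 at 50.8 FPKM, and the ranges of these 5 genes over libraries overlapped. At the other end stood Lss at 3.29, Stard4 at 2.46, Tm7sf2 at 2.28 and Hsd17b7 at 1.72 FPKM. Srebf2, at 11.1 FPKM, was below Srebf1 in each of the 16 libraries. Fdps, farnesyl diphosphate synthase, was at 0, 0.218, 0.35 and 0.0124 FPKM in Has2_WT, 0, 0.2, 0.216 and 0 in Has2_TG, 0.104, 0.136, 0.0361 and 0 in PH20_WT and 0.305, 0.299, 0.256 and 0.05 in PH20_TG, with at most 25 reads, and was not tested. The gene counts of STAR leave out reads that map to several places and Fdps has a processed pseudogene, so its level is uncertain.

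Libraries of the same group differed among themselves across many members at once. Has2_WT3 had 23 of the 27 tested members above their 16-library mean, Has2_WT4 22, PH20_TG2 23 and PH20_TG3 22, while the library labelled PH20_TG1 had 4, PH20_WT3 6 and PH20_TG4 7. Of the 27 members, 11 had their highest value in Has2_WT3 and 6 in Has2_WT4, and 8 had their lowest in PH20_WT1. The 18 tested enzymes from Hmgcs1 to Dhcr7 lay on average 0.15, 0.09, 0.52 and 0.48 above their 16-library mean (log2) in Has2_WT1 to Has2_WT4. In the PH20 controls the same average was -0.28, -0.19, -0.25 and -0.20, all 4 below every Has2_WT library. The PH20_TG libraries parted 2 against 2, with averages of -0.41, 0.39, 0.22 and -0.18 in PH20_TG1 to PH20_TG4. Those of Has2_TG were 0.07, -0.28, -0.10 and -0.02. Neither the counts nor the averages were made for all tested genes. A shift of a whole library and one of the members therefore cannot be told apart here.

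In the Has2 study, the members that passed the test were lower in Has2_TG. Of 27 tested with limma (two-sided moderated test, called at an unadjusted p under 0.05), 5 were called lower, Acss2, Mvd, Dhcr7, Lss and Idi1, and 0 higher. Among all 12606 genes tested, 3.75% were called lower and 6.25% higher, and 0.103% passed after Benjamini-Hochberg adjustment, which no member did. The log2 difference of the members was negative for 24 and positive for 3, with a median of -0.28 against -0.03 over all genes. The 7 adipocyte progenitor markers were all called higher in Has2_TG, with a median log2 difference of 1.58 and summed levels of 708 to 1196 FPKM against 234 to 485 FPKM in Has2_WT, and 5 of 7 macrophage markers were called higher. With the progenitor score of each library as a covariate, none of the 5 stayed called, while Sqle and Msmo1 were called lower and Tm7sf2 higher. In that fit 2.9% of all genes were called lower and 4.02% higher. The log2 differences were then -1.06 (SE 0.79) for Acss2, -0.80 (SE 0.62) for Mvd, -1.27 (SE 0.64) for Idi1, -0.70 (SE 0.56) for Dhcr7 and -0.56 (SE 0.77) for Lss, with larger SE than without the score. The scores did not overlap between the groups, so their part and that of the transgene cannot be told apart in this fit. Without Has2_WT1 the count of lower members was 8, against 3.38% of all genes.

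In the PH20 study, the members that passed the test were higher in PH20_TG. Of 27 tested, 3 were called higher, Mvd, Cyp51 and Tm7sf2, and 0 lower, against 3.2% of 12532 genes called higher, 3.39% lower and 0% after adjustment (0 genes). Signs were positive for 20 members and negative for 7, with a median log2 difference of 0.34 against 0.01 over all genes. Without the library labelled PH20_TG1, 8 members were called higher, Srebf1, Insig1, Acss2, Mvk, Pmvk, Cyp51, Tm7sf2 and Sc5d, and 0 lower, with a median of 0.56, against 4.47% and 4.88% of 12510 genes. Without PH20_TG2 or PH20_WT3 only Tm7sf2 was, and without PH20_TG4 6 were, against 2.41%, 2.27% and 2.72% of all genes. PH20_TG2 and PH20_TG3 had the highest adipocyte scores of the 16 libraries and the lowest progenitor scores, and 11 of 12 skeletal muscle markers were called lower in PH20_TG, with a median log2 difference of -4.17, as were 6 of 10 B cell markers. With the muscle score as a covariate the count of higher members was 0, against 1.47% of all genes. The log2 differences were then 0.68 (SE 0.31) for Tm7sf2, 0.13 (SE 0.26) for Cyp51 and -0.20 (SE 0.22) for Mvd. Muscle scores were 3.59 to 5.63 in PH20_WT and -0.63, -1.63, 1.30 and 3.78 in PH20_TG1 to PH20_TG4. Only PH20_TG4 reached into the controls, so the parts of muscle and transgene can hardly be told apart in this fit. With the adipocyte score the count was 1, against 5.47%, beside 2 called lower, Idi1 and Fdft1, against 4.36%.

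**Figure D2:**
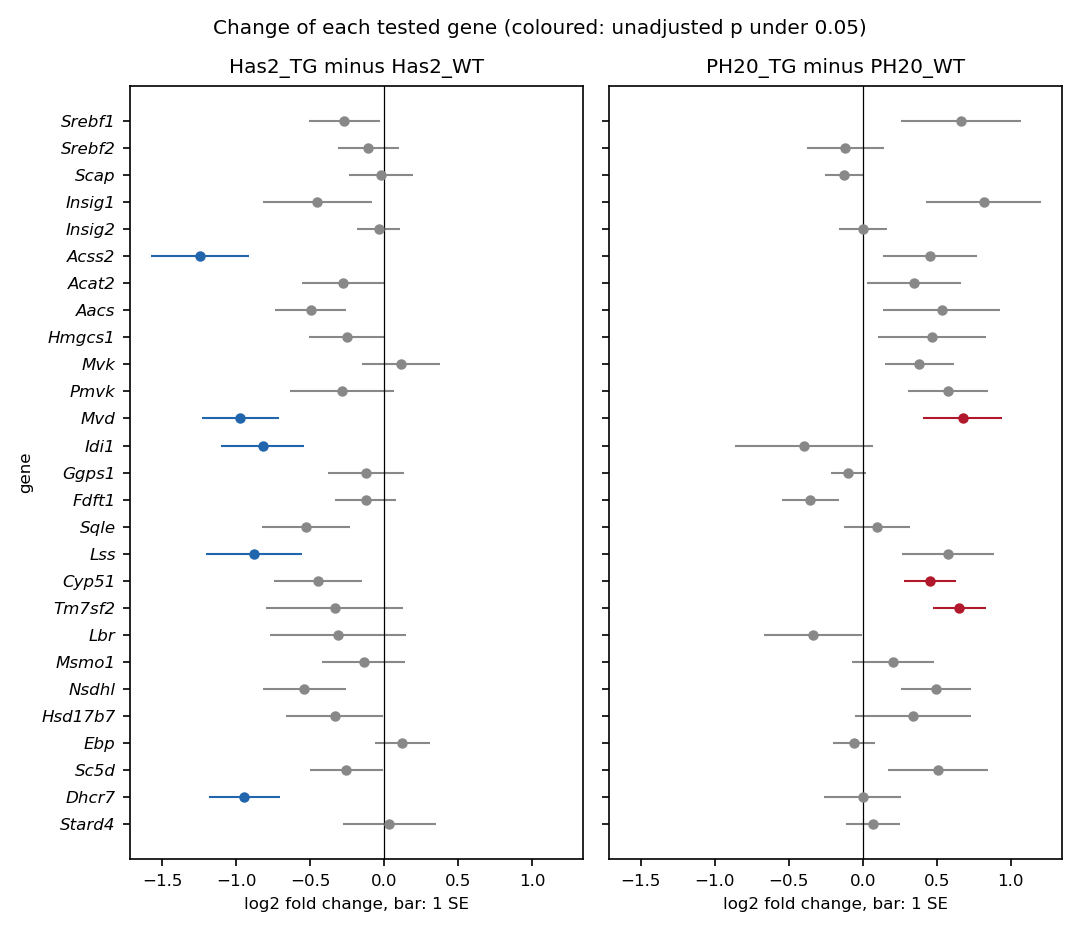
Log2 fold change of the 27 tested members in the Has2 study (left) and the PH20 study (right), with bars of 1 SE from the limma fit of 8 libraries each. Coloured points passed an unadjusted p under 0.05, 5 lower in blue on the left and 3 higher in red on the right.

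The change in the Has2 study minus that in the PH20 study was tested over the 16 libraries. Acss2, Mvd, Lss, Insig1, Nsdhl, Dhcr7 and Cyp51 were called, all 7 with the more negative change in the Has2 study, and 0 the other way, against 3.68% and 4.03% of 12593 genes and 0% after adjustment. The median over the members was -0.67 against -0.02 over all genes. Without PH20_TG1, 12 members were called with the more negative change in the Has2 study, against 4.65% of 12572 genes. With the progenitor score as a covariate 2 were, Acss2 and Mvd, against 2.7% of all genes.

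The controls of the studies, which share age range, rtTA and diet by the labels, differed as well. Of the 27 members, 14 were called higher in Has2_WT than in PH20_WT and 0 lower, against 5.61% and 4.66% of 12593 genes and 0% after adjustment, with a median log2 difference of 0.61 against -0.01 over all genes. The 14 were Insig1, Acss2, Acat2, Aacs, Hmgcs1, Pmvk, Mvd, Idi1, Sqle, Lss, Cyp51, Nsdhl, Sc5d and Dhcr7. The 2 control groups come from separate studies, so line, study and handling cannot be told apart, and the Has2 comparison, the difference of changes and this one all use the Has2_WT libraries, as the PH20 comparison and the last pair use those of PH20_WT. Without Has2_WT4 the count was 8, against 4.42% of all genes. Without Has2_WT3 or PH20_WT1 it was 9, against 3.7% and 3.66%. With the muscle or the adipocyte score as a covariate it was 8, against 5.77% and 4.71%, with a median over the members of 0.59 and 0.42. Muscle scores were 0.27 to 2.46 in Has2_WT and 3.59 to 5.63 in PH20_WT. They did not overlap, so the parts of muscle and study can hardly be told apart in that fit. Of the markers, 5 of 6 tested for Schwann cells, 4 of 12 for muscle, 2 of 7 for macrophages and 1 of 7 for progenitors were called lower in Has2_WT.

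Among the factors, Srebf1, which favours fatty acid synthesis genes, was at 85.3, 123, 188 and 126 FPKM in Has2_WT1 to Has2_WT4 and at 130.4, 108, 85.6 and 97.8 FPKM in Has2_TG. Its values were 53.1, 96.8, 86.1 and 103 FPKM in PH20_WT and 64.2, 216, 205 and 101 FPKM in PH20_TG. PH20_TG2 and PH20_TG3 were the highest of the 16 libraries, and the groups overlapped in each study. With all libraries, no covariate and no replicate block, no comparison called Srebf1 (adjusted p = 0.765 in the Has2 and 0.745 in the PH20 study). Adding the B cell score to the fit called it lower in Has2_TG (-0.57, SE 0.24), and a replicate block called it higher in PH20_TG. Without PH20_TG1 the PH20 difference was 1.00 (log2) with an SE of 0.33 and an adjusted p of 0.516. Srebf1 overlaps Rai1 on the opposite strand, at 3.65 FPKM.

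Srebf2, the factor of the sterol genes, was at 14, 13.2, 9.05 and 11.3 FPKM in Has2_WT, 8.71, 9.55, 14.3 and 11.8 FPKM in Has2_TG, 18.3, 10, 10.5 and 7.04 FPKM in PH20_WT and 10.4, 8.68, 10.1 and 10.7 FPKM in PH20_TG. All groups overlapped and the log2 differences were -0.11 (SE 0.21) in the Has2 study and -0.12 (SE 0.26) in the PH20 study. Its highest value was in PH20_WT1, a library rich in B cell markers and the lowest of the 16 for 8 members.

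Scap, the escort of the SREBP precursors, was at 8.38, 7.33, 7.83 and 4.5 FPKM in Has2_WT and 7.74, 6.96, 6.5 and 5.81 FPKM in Has2_TG. Across the PH20 libraries Scap was at 8.84, 6.83, 6.87 and 6.56 FPKM in PH20_WT and 6.46, 6.71, 6.62 and 6.69 FPKM in PH20_TG. The 4 PH20_TG values had an SD of 0.112 FPKM, and neither study called Scap. Insig2, the Insig that is less dependent on SREBP, was not called either, with group means of 16.7 ± 2.14, 16.2 ± 1.48, 15 ± 1.55 and 15.2 ± 3.01 FPKM (SD, n = 4) in Has2_WT, Has2_TG, PH20_WT and PH20_TG. Its single libraries held 14.5, 15.6, 19.4 and 17.2 FPKM in Has2_WT, 17.2, 17.1, 14.1 and 16.3 in Has2_TG, 14.6, 15.9, 13 and 16.6 in PH20_WT and 13, 19.1, 16 and 12.6 in PH20_TG, a 1.54-fold span, and the groups overlapped.

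Insig1, itself an SREBP target and a brake on Scap, varied far more (ENSMUSG00000045294, chromosome 5 from 28071363 to 28078662). It stood at 123, 109.7, 112 and 135 FPKM in Has2_WT and at 214, 77.5, 63.8 and 54.8 FPKM in Has2_TG, where Has2_TG1 was the highest of all libraries and the other 3 lay below every control. Of the PH20 groups, Insig1 was at 49.2, 61, 46.6 and 37.3 FPKM in PH20_WT and at 46, 142, 141 and 54.9 FPKM in PH20_TG, where PH20_TG2 and PH20_TG3 stood above every control and the other pair did not. The Has2_WT and PH20_WT libraries did not overlap, with a log2 difference of 1.32 (SE 0.41, adjusted p = 0.362). The change was -0.45 (SE 0.37) in the Has2 study and 0.82 (SE 0.39) in the PH20 study, or 1.11 (SE 0.35) without PH20_TG1. Its difference between studies, -1.27 (SE 0.58, adjusted p = 0.638), was called in 4 of 16 fits that left out 1 library.

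**Figure D3:**
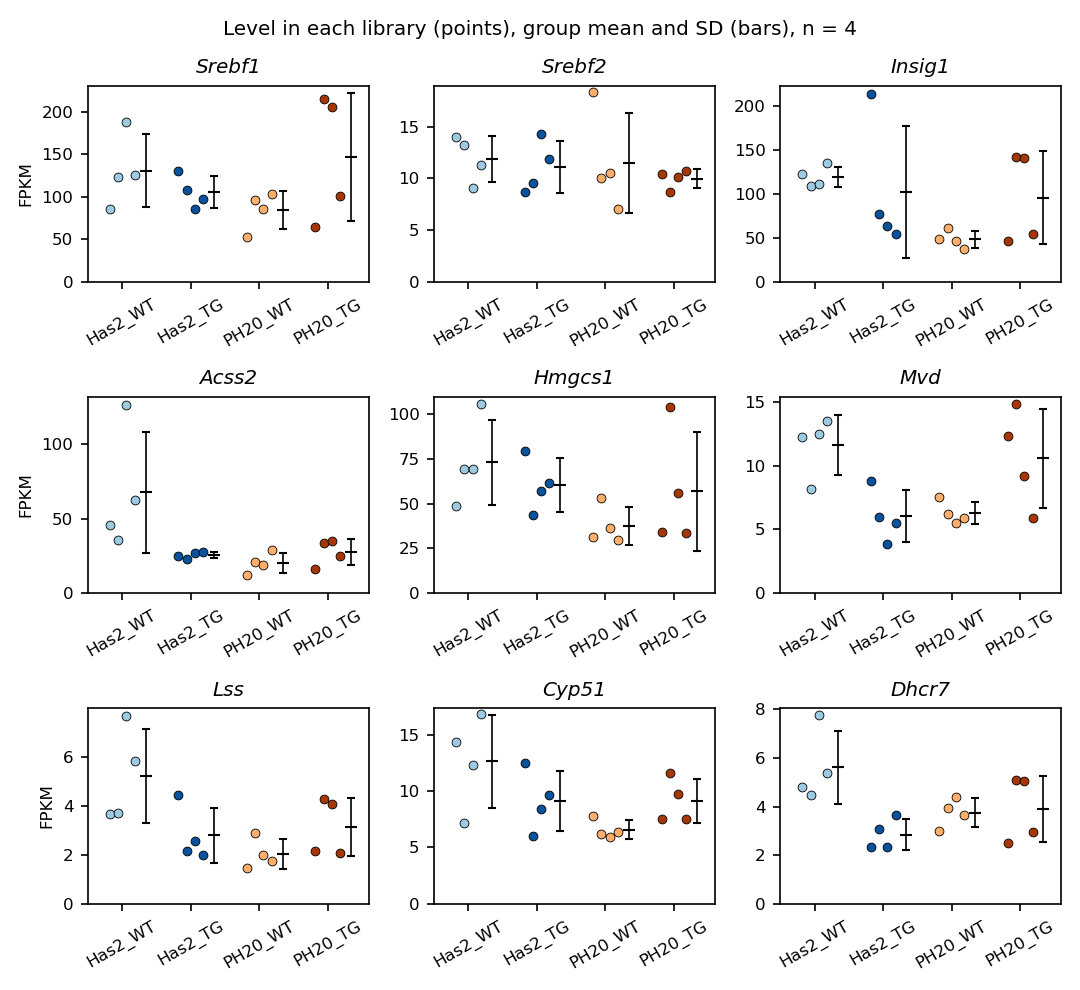
FPKM of 9 members in each of the 16 libraries (points, from left to right replicates 1 to 4), with the group mean and SD (n = 4) as bars on a linear axis from 0. Acss2 and Dhcr7 show every Has2_TG library below every Has2_WT library, and Srebf1 and Insig1 show PH20_TG2 and PH20_TG3 above PH20_TG1 and PH20_TG4.

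Acss2, which makes cytosolic acetyl-CoA from acetate, had the largest change of the members in the Has2 study (ENSMUSG00000027605, chromosome 2 from 155517948 to 155585724). It was at 45.9, 35.6, 126 and 62.5 FPKM in Has2_WT and at 24.5, 22.8, 26.7 and 27.2 FPKM in Has2_TG, without overlap. In PH20_WT it was at 12, 21, 18.4 and 28.9 FPKM and in PH20_TG at 16.1, 33.8, 35 and 25 FPKM, so that only Has2_WT stood apart. The log2 change was -1.25 (SE 0.33, adjusted p = 0.184) in the Has2 study, called without any 1 library, and 0.45 (SE 0.32) in the PH20 study, or 0.69 (SE 0.29) without PH20_TG1. The difference of -1.70 (SE 0.49, adjusted p = 0.567) between the studies was called in all 16 fits that left out a library. Has2_WT exceeded PH20_WT by 1.64 (SE 0.35, adjusted p = 0.303). Acss2 overlaps Gss, on the opposite strand, at a mean of 5.29 FPKM, and whether the counting used strand is not given in the sources used here.

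Acat2, the cytosolic thiolase that joins 2 acetyl-CoA, and Aacs, which activates acetoacetate for lipid synthesis, were called, with all libraries, in the comparison of the controls. Acat2 was at 40.3, 50.3, 106 and 60.9 FPKM in Has2_WT, 62.4, 50.6, 46.1 and 41.1 in Has2_TG, 26.3, 38.8, 37.4 and 50.3 in PH20_WT and 28.4, 58.3, 76.2 and 39.7 in PH20_TG, with Has2_WT3 highest. Aacs was at 75.8, 115, 176 and 139 FPKM in Has2_WT, 88.6, 72.3, 98.3 and 85 in Has2_TG, 49.4, 66.8, 58.1 and 69.2 in PH20_WT and 51.2, 155, 146 and 50.5 in PH20_TG. Each Has2_WT library had more Aacs than each PH20_WT library (1.00, SE 0.35, adjusted p = 0.377), while the groups overlapped for Acat2 (0.69, SE 0.32, adjusted p = 0.477), whose call was kept in 7 of 16 fits without 1 library. Aacs was also called in the difference of changes without PH20_TG1 (-1.29, SE 0.47) and lower in Has2_TG with the adipocyte score (-0.49, SE 0.18) or the B cell score (-0.88, SE 0.21) as a covariate.

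The mevalonate enzymes begin with Hmgcs1, which makes HMG-CoA and whose promoter holds the sterol element shown above. It was at 48.4, 69.4, 69.2 and 106 FPKM in Has2_WT and 79.5, 43.3, 57.2 and 61.4 FPKM in Has2_TG. In PH20_WT it was at 31.5, 52.9, 36.4 and 29.3 FPKM and in PH20_TG at 33.8, 104, 55.6 and 33.2 FPKM. PH20_TG2 and Has2_WT4 were the highest 2 libraries and the groups overlapped in each study, with log2 changes of -0.26 (SE 0.25) and 0.47 (SE 0.37). Has2_WT exceeded PH20_WT by 0.94 (SE 0.34, adjusted p = 0.385), a call lost without Has2_WT4.

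Pmvk, phosphomevalonate kinase, was at 24.3, 51.3, 101 and 52.7 FPKM in Has2_WT and 45.9, 41.1, 35.7 and 44.6 in Has2_TG. The PH20 libraries had Pmvk at 21.9, 32.7, 28.1 and 40.8 FPKM in PH20_WT and 27.1, 50.7, 58.3 and 50.2 in PH20_TG. Has2_WT3 was the highest of the 16 libraries, the groups overlapped, and the control difference of 0.75 (SE 0.34, adjusted p = 0.472) stayed called in 7 of 16 fits without 1 library. The kinase before it, Mvk, ranged from 7.79 to 26 FPKM over the libraries. With all of them and no replicate block it was not called, although each Has2_WT library exceeded each PH20_WT library. Without PH20_TG1 it was called higher in PH20_TG (0.57, SE 0.19) and in Has2_WT against PH20_WT. With all libraries and a replicate block both calls were made as well. Ggps1, which makes geranylgeranyl diphosphate, was at 4.06 to 9.41 FPKM and was not called. Ggps1 overlaps Arid4b on the opposite strand, at 1.73 FPKM.

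Mvd, the decarboxylase that makes isopentenyl diphosphate, was called in all 4 comparisons (ENSMUSG00000006517, chromosome 8 from 122433601 to 122443422). It was at 12.3, 8.18, 12.5 and 13.5 FPKM in Has2_WT and at 8.77, 5.96, 3.88 and 5.48 FPKM in Has2_TG, where only Has2_TG1 was above the lowest control. In PH20_WT it was at 7.54, 6.19, 5.48 and 5.91 FPKM and in PH20_TG at 12.3, 14.9, 9.22 and 5.93 FPKM, where PH20_TG4 alone lay among the controls. The log2 change was -0.97 (SE 0.26, adjusted p = 0.186) in the Has2 study and 0.67 (SE 0.27, adjusted p = 0.709) in the PH20 study. The PH20 call was lost in 5 of 8 fits without 1 library, the one without PH20_TG1 among them (0.58, SE 0.29), and with the muscle score as a covariate the difference was -0.20 (SE 0.22). The difference between studies was -1.65 (SE 0.39, adjusted p = 0.567) and was called in every fit that left out a library. Mvd had at least 135 reads in each library.

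Idi1, which interconverts the isoprene units, was at 5.57, 4.58, 10.1 and 8.87 FPKM in Has2_WT and 4.35, 2.87, 4.56 and 3.96 FPKM in Has2_TG, with no overlap. For the PH20 groups Idi1 was at 2.52, 4.17, 3.66 and 4.3 FPKM in PH20_WT and 0.916, 4.73, 4.36 and 2.72 in PH20_TG, where PH20_TG1, with 55 reads, was the lowest. The Has2 difference was -0.82 (SE 0.28, adjusted p = 0.338), and that in the PH20 study was -0.39 (SE 0.47).

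Squalene is made by Fdft1, oxidized by Sqle and closed to lanosterol by Lss. Lss was at 3.66, 3.7, 7.68 and 5.83 FPKM in Has2_WT and 4.45, 2.15, 2.58 and 2 FPKM in Has2_TG, and only Has2_TG1 exceeded any control (ENSMUSG00000033105, chromosome 10 from 76531588 to 76557138). Levels of Lss in the other study were 1.45, 2.89, 2.01 and 1.74 FPKM in PH20_WT and 2.16, 4.28, 4.06 and 2.06 FPKM in PH20_TG. The Has2 difference of -0.88 (SE 0.32, adjusted p = 0.39) was called in 4 of 8 fits without 1 library, failing without Has2_WT3, Has2_WT4, Has2_TG2 or Has2_TG4. The difference between studies, -1.45 (SE 0.47, adjusted p = 0.598), and that between controls, 1.30 (SE 0.33, adjusted p = 0.303), stayed called in all 16.

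Sqle was at 4.9, 3.98, 6.31 and 8.46 FPKM in Has2_WT, 3.37, 2.87, 6.2 and 3.87 in Has2_TG, 2.75, 2.69, 2.61 and 4.76 in PH20_WT and 3.22, 3.9, 3.61 and 2.68 in PH20_TG. The controls differed by 0.85 (SE 0.27, adjusted p = 0.362), with PH20_WT4 alone reaching into Has2_WT. With all libraries and no covariate the other comparisons did not call Sqle. It was called lower in Has2_TG once the B cell score (-0.88, SE 0.32) or the progenitor score (-1.75, SE 0.54) entered the fit. Fdft1 ranged from 11 to 21.9 FPKM and was not called with all libraries, but was called lower in PH20_TG with the adipocyte score (-0.53) or the progenitor score (-0.46) as a covariate. It overlaps Ctsb, a lysosomal protease gene on the opposite strand at a mean of 353 FPKM, and with the strand setting not given its level is uncertain.

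From lanosterol on, Cyp51, the demethylase, was at 14.3, 7.13, 12.3 and 16.8 FPKM in Has2_WT and 12.5, 6.02, 8.36 and 9.64 FPKM in Has2_TG, with overlap. Cyp51 in the PH20 groups was at 7.8, 6.15, 5.89 and 6.39 FPKM in PH20_WT and 7.56, 11.6, 9.69 and 7.54 FPKM in PH20_TG, where PH20_WT1 alone overlapped. The PH20 difference was 0.45 (SE 0.17, adjusted p = 0.703), and 0.53 (SE 0.18, adjusted p = 0.516) without PH20_TG1. With all 8 libraries the call was lost in 5 of 8 fits that left out 1. Cyp51, which overlaps Akap9 on the opposite strand at 1.58 FPKM, differed between studies by -0.90 (SE 0.36, adjusted p = 0.613) and between controls by 0.88 (SE 0.26, adjusted p = 0.344).

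Tm7sf2, a sterol C14 reductase, was at 1.67, 1.8, 1.94 and 1.37 FPKM in PH20_WT and 2.37, 2.83, 3.19 and 2.48 FPKM in PH20_TG. It was the only 1 of the 27 tested members without overlap in the PH20 study, higher by 0.65 (SE 0.18, adjusted p = 0.664). Its exact permutation p was 0.0286, the smallest that 4 against 4 can give. Any single gene separates fully with that probability when its groups do not differ, and 1 of 27 members is near it. The share of all genes without overlap was not counted. The limma call of Tm7sf2 was kept without any 1 library, and the difference was 0.71 (SE 0.19) without PH20_TG1. In the Has2 study Tm7sf2 was at 1.76, 2.52, 4.59 and 1.58 FPKM in Has2_WT and 3.17, 2.71, 0.783 and 1.77 in Has2_TG, and groups overlapped widely. Lbr, the other C14 reductase and a nuclear envelope protein, ranged from 1.78 to 10.9 FPKM and was highest in PH20_WT1 and Has2_WT1, 2 of the libraries rich in B cell markers. It was not called.

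Nsdhl, a C4 decarboxylating dehydrogenase, was at 13.8, 14.3, 31.1 and 17.8 FPKM in Has2_WT, 11, 10.2, 12.1 and 18 in Has2_TG, 7.64, 12.3, 11.6 and 15.7 in PH20_WT and 14.1, 18, 20.5 and 13.1 in PH20_TG. Has2_WT3 was the highest and the groups overlapped in each study. Its changes of -0.54 (SE 0.28) and 0.49 (SE 0.23) were not called, while their difference of -1.03 (SE 0.39, adjusted p = 0.606) was. Sc5d, the C5 desaturase, was at 31.5, 31.1, 32.7 and 52.5 FPKM in Has2_WT, 45.3, 22.7, 29.8 and 26.9 in Has2_TG, 18.8, 26.8, 20.6 and 17.4 in PH20_WT and 16.7, 49.5, 41.3 and 21.7 in PH20_TG. With all libraries it was called between the controls, which did not overlap, with a log2 difference of 0.80 (SE 0.31, adjusted p = 0.422). Without PH20_TG1 it was also called higher in PH20_TG (0.78, SE 0.29) and in the difference of changes (-1.03, SE 0.40).

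Dhcr7, which makes cholesterol from 7-dehydrocholesterol, was at 4.81, 4.48, 7.78 and 5.37 FPKM in Has2_WT and 2.33, 3.07, 2.33 and 3.67 FPKM in Has2_TG, with no overlap (ENSMUSG00000058454, chromosome 7 from 143823145 to 143848410). Values of Dhcr7 in the other groups were 3, 3.94, 4.39 and 3.66 FPKM in PH20_WT and 2.49, 5.08, 5.06 and 2.97 FPKM in PH20_TG. Its Has2 difference of -0.95 (SE 0.24) had the smallest adjusted p of the members, 0.15, and was called without any 1 library. In the PH20 study the difference was 0.00 (SE 0.26), PH20_TG2 and PH20_TG3 lying above and PH20_TG1 and PH20_TG4 below the controls, or 0.19 (SE 0.23) without PH20_TG1. Its difference between studies was -0.95 (SE 0.36, adjusted p = 0.606), called in all 16 fits that left out a library, and that between controls 0.55 (SE 0.25), called in 10 of 16. Msmo1 (2.82 to 7.13 FPKM), Hsd17b7 (0.735 to 3.08 FPKM) and Ebp (14.2 to 23.6 FPKM) were called in no comparison with all libraries and no covariate. Msmo1 was called lower in Has2_TG with the progenitor score as a covariate (-1.42, SE 0.46). Without the 4 control libraries rich in B cell markers, Hsd17b7 was called in the difference of changes (-1.39, SE 0.59) and between controls (1.28, SE 0.48). The controls in those fits were Has2_WT3, Has2_WT4, PH20_WT2 and PH20_WT4 only. Stard4, a carrier of free sterol, was at 2.27, 2.16, 1.74 and 2.1 FPKM in Has2_WT, 3.88, 1.73, 1.37 and 2.13 in Has2_TG, 3.39, 2.7, 2.5 and 2.19 in PH20_WT and 3.29, 2.39, 2.64 and 2.93 in PH20_TG, and was not called either, the groups overlapping in each study.

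The neighbouring pathways were read from lists of named genes. Of 16 fatty acid synthesis genes, the targets of Srebf1 among them, 7 were called lower in Has2_TG, 0 lower in PH20_TG, 8 with a more negative change in the Has2 study and 11 higher in Has2_WT than in PH20_WT, against 3.75%, 3.39%, 3.68% and 5.61% of all genes tested. None were called higher in PH20_TG, against 3.2%. The 3 with the smallest p in the Has2 study were Acly, ATP citrate lyase (-1.85, SE 0.39, adjusted p = 0.0906), Elovl6, a fatty acid elongase (-1.59, SE 0.38), and Fasn, fatty acid synthase (-1.19, SE 0.32). Acly stood at 425, 285, 1272 and 565 FPKM in Has2_WT and 181, 138, 159 and 129 FPKM in Has2_TG. In the PH20 study it was at 71.1, 126, 138 and 278 FPKM in PH20_WT and 116, 171, 398 and 179 FPKM in PH20_TG. Has2_WT did not overlap Has2_TG or PH20_WT, while PH20_TG3 reached into its range. Without PH20_TG1, 0 of the 16 were called in the PH20 study and 13 were called with a more negative change in the Has2 study, against 4.65% of all genes. The median over the 16 genes was -0.72 in the Has2 and 0.43 in the PH20 study, beside -0.32 and 0.36 over the 18 cholesterol enzymes. The difference between these lists was not tested.

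**Figure D4:**
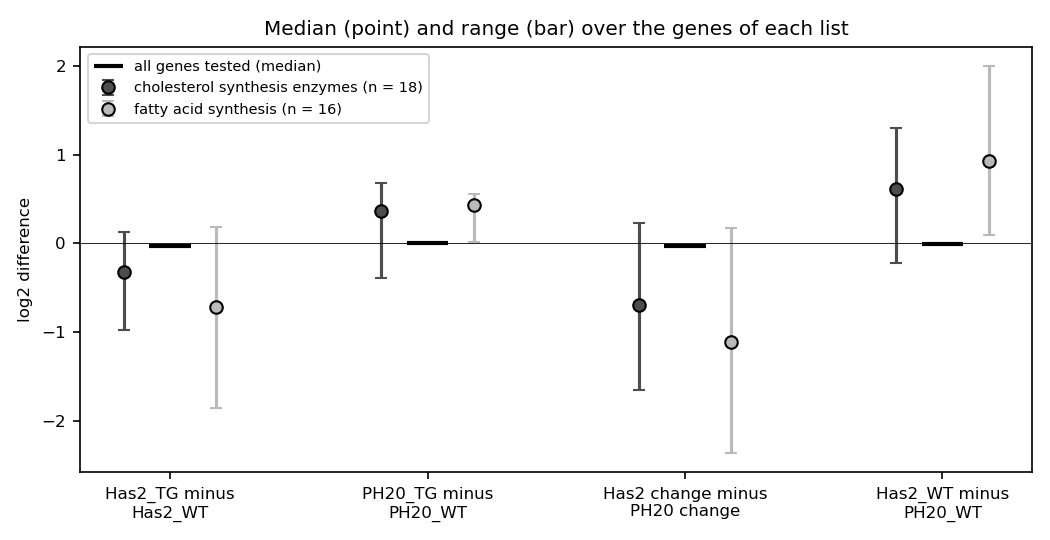
Median (point) and range (bar) of the log2 difference over 18 cholesterol synthesis enzymes and 16 fatty acid synthesis genes in the 4 comparisons, with the median of all tested genes as a short line. The medians lie below 0 in the Has2 study and above 0 in the PH20 study, and those of all genes lie between -0.03 and 0.01.

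Among genes of SREBP processing, Erlin2, which binds Insig in the endoplasmic reticulum, and Mbtps1, the protease that makes the first cut of the precursor, were called in neither study and were higher in Has2_WT than in PH20_WT by 0.39 (SE 0.16, adjusted p = 0.452) and 0.30 (SE 0.13, adjusted p = 0.468). Lrp1, a lipoprotein receptor, was called higher in Has2_TG (0.41, SE 0.18) and in PH20_TG (0.35, SE 0.14), where it was 0.26 (SE 0.14) and not called without PH20_TG1. None of 3 esterification genes and none of 6 efflux and LXR genes were called by limma at the unadjusted threshold in any comparison. Of all genes tested, between 3.2% (higher in PH20_TG) and 6.25% (higher in Has2_TG) were called in a given direction and comparison. At such shares lists this short would often hold no call, so whether these pathways were spared cannot be read from them.

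The cell type markers can be read beside the enzymes library by library. The 4 libraries with the highest enzyme average, Has2_WT3, Has2_WT4, PH20_TG2 and PH20_TG3, had the 4 highest adipocyte marker scores (9.31, 9.29, 9.60 and 9.50, mean log2). Their summed progenitor markers were 234, 485, 234 and 312 FPKM, against 1269.5 FPKM in PH20_TG1 and 1216 FPKM in PH20_TG4. Has2_WT2, Has2_WT1 and PH20_WT2, at 242, 304 and 309.8 FPKM, were as low in these markers, with enzyme averages of 0.09, 0.15 and -0.19. The adipocyte scores did not follow the enzymes in every library either. Has2_WT1 scored 8.58, below all libraries but PH20_WT1, while PH20_WT2 scored 9.20. Has2_TG2 scored 9.12 with an enzyme average of -0.28. Within the controls of the Has2 study, Has2_WT1 and Has2_WT2 were rich in B cell markers and lower in the enzymes than Has2_WT3 and Has2_WT4. Without the 4 control libraries rich in B cell markers, 12 members were called lower in Has2_TG, 1 higher in PH20_TG, 8 with a more negative change in the Has2 study and 10 higher in Has2_WT than in PH20_WT. The shares of all genes in those fits were 3.64%, 2.51%, 3.39% and 3.46%. Those fits kept only Has2_WT3, Has2_WT4, PH20_WT2 and PH20_WT4 as controls. Has2_WT3 and Has2_WT4 had the highest enzyme averages of all libraries, so the Has2 controls were higher in the enzymes by that choice. The part of B cells cannot be told apart from it. The part of cell composition in these differences was otherwise not tested. The B cell markers summed to between 3.33 and 5.11 FPKM in the 4 libraries where the enzymes were highest.

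**Figure D5:**
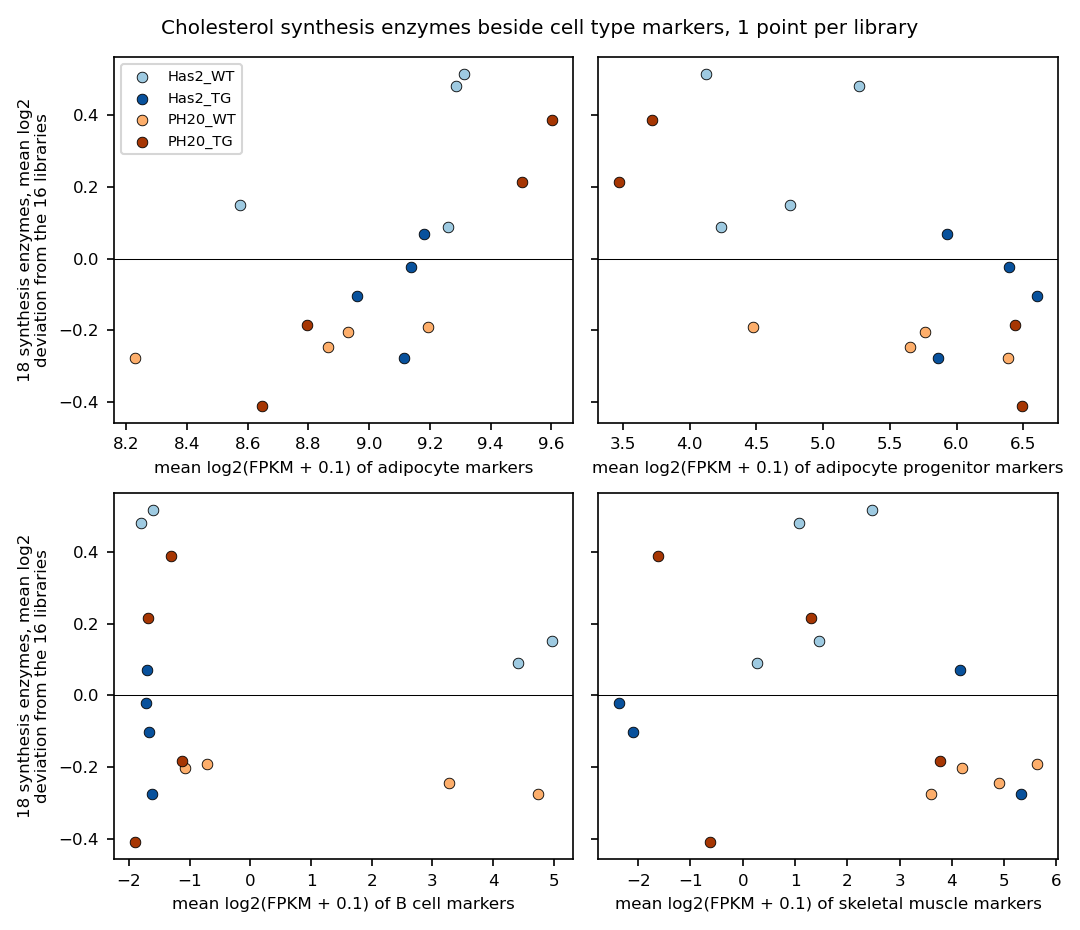
Mean log2 deviation of the 18 tested cholesterol synthesis enzymes (vertical axis) against the mean log2(FPKM + 0.1) of adipocyte, adipocyte progenitor, B cell and skeletal muscle markers (horizontal axes), with 1 point per library and colours by group. The 4 libraries highest on the vertical axis are the 4 furthest right for adipocyte markers, and the 4 PH20_WT libraries lie between -0.28 and -0.19.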

How the data were processed

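Bulk RNA of inguinal white adipose tissue was sequenced in 16 libraries, 4 per group. The authors mapped reads to GRCm38 with a GENCODE annotation using STAR, counted them per gene with its gene count mode and deposited FPKM values, with 1 column per library and the gene length beside them. The submitters' processing notes name FastQC 0.11.9, STAR 2.7.9a, MultiQC 1.12 and DESeq2. Whether counting used strand is not given in the sources used here.

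The FPKM steps gave back whole reads for 100% of values (tolerance 0.01). These served for depth, the read counts given, the minimum, the comparison of library pairs and the voom alternative. No pair of libraries agreed within sampling noise. Tests covered genes averaging 50 reads or more and ran on log2(FPKM + 0.1) with limma 3.58.1 (R 4.3.3, moderated test with a trend, two-sided), within each study of 8 libraries and, for the difference of changes and of controls, over all 16. The pseudocount understates changes of low genes. A gene was called at an unadjusted p under 0.05, the threshold of the study, and adjusted p are Benjamini-Hochberg over all genes tested. Exact permutation tests used single genes. The labels give separate samples but not their mice, so p-values measure the spread between these samples. The scripts were tested on simulated data. Libraries held 14421692 to 26751729 reads, and intervals or limits from reads cover counting error only.

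The members and the gene and marker lists were chosen with earlier results of these data known. All 28 members are named, those called in any comparison and 13 chosen for their role with each library's value, and pathway genes only if called, at most 3 per list by smallest p. Some pathway genes are not reported here. Alternatives were a replicate block, a pseudocount of 1, other filters on low values, median-of-ratios and quantile scaling, no variance trend, voom weights on the recovered reads, 1 fit of 16 libraries, marker scores as covariates and leaving out each library.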

Additional observations from a re-analysis of the deposited data

Results flagged for a closer look

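Of 108 sets of 4 libraries (27 members in 4 groups), 5 (4.63%) held a library that stood apart by Dixon's criterion at 95%, and chance gives about 1 in 20. Scap was at 8.84 FPKM in PH20_WT1, against 6.56 to 6.87 in the other 3. Insig1 was at 214 FPKM in Has2_TG1, against 54.8 to 77.5. Mvk was at 26 FPKM in Has2_TG3, against 11.6 to 12.5. Sqle was at 4.76 FPKM in PH20_WT4, against 2.61 to 2.75. Sc5d was at 52.5 FPKM in Has2_WT4, against 31.1 to 32.7.

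The change in the Has2 study minus that in the PH20 study passed an unadjusted p under 0.05 (limma, 16 libraries) for 7 members, and 0 passed after adjustment. The log2 differences were -1.70 for Acss2, -1.65 for Mvd, -1.45 for Lss, -1.27 for Insig1, -1.03 for Nsdhl, -0.95 for Dhcr7 and -0.90 for Cyp51.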

How the results depend on the processing

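Counts are members with an unadjusted p under 0.05. The share of all genes called also changed between fits and is given beside them. In the Has2 study (5 lower, 0 higher), 11 were lower once B cell markers entered as a covariate, against 3.69% of all genes. With the adipocyte progenitor score 2 were lower and 1 higher, against 2.9% and 4.02%, and Tm7sf2 turned to 1.98 (log2). In the PH20 study (3 higher, 0 lower), the muscle score left 0 higher, against 1.47%, and turned Mvd to -0.20. The adipocyte score left 1 higher and 2 lower, against 5.47% and 4.36%. The progenitor score left 5 higher and 1 lower, against 5.18% and 3.89%, and 1 fit of all 16 libraries 1 higher, against 2.68%. For the difference of changes (7), the progenitor score left 2, against 2.7%. Between the controls (14), the muscle and adipocyte scores left 8 each and the progenitor score 7, against 5.77%, 4.71% and 3.47%. The progenitor score and the joint removal of Has2_WT1, Has2_WT2, PH20_WT1 and PH20_WT3 were chosen after seeing the data. That removal gave 12 lower in the Has2 study and 1 higher in the PH20 study, against 3.64% and 2.51%. It left Has2_WT3 and Has2_WT4, the libraries with the highest enzyme averages, as the only Has2 controls. The higher level of these controls was thus set by the choice. Leaving out each library in turn gave 4 to 8 lower in the Has2 study, against 2.61% to 4.68% of all genes. In the PH20 study it gave 1 to 8 higher, against 2.27% to 4.47%, and 0 to 1 lower, against 2.22% to 5.21%. It gave 5 to 12 for the difference of changes, against 2.5% to 4.89%, and 8 to 16 between controls, against 3.66% to 7.23%. Apart from the construction of fewer libraries, the cause was not tested.

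Correlations of same-numbered deviations ran from -0.18 to 0.42. Libraries with different numbers were not compared, so whether the replicate numbers pair the samples was not tested. With a replicate block, 8 members were called higher in the PH20 study, against 5.05% of all genes, and 6 lower in the Has2 study, against 3.2%. Fdps had too few reads to test.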
